A study of Mus musculus with 18 samples.

Results

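Fkbp5, Tsc22d3, Zbtb16, Ndrg1, Sgk1, Acsl3 and Odc1, classic textbook targets of androgen in male tissues and prostate cell lines were followed in the IS-caput, the initial segment and caput of the mouse epididymis, where sperm begin to mature. The genes were picked by name and not by a measured value, but with earlier results of these data known. All 7 of them were found among the 24346 genes of the deposited expression table. In B6D1F1 males operated at 8 weeks of age and sampled 4 weeks later, at 12 weeks of age, the groups were sham-operated controls (sham), bilateral orchidectomy (BOD), and the contralateral (contra) and ipsilateral (UOD) sides after unilateral orchidectomy (OD). According to the study's methods the contralateral and ipsilateral ducts came from the same animals. Untreated wild-type (WT) and Nell2-/- males were 14 weeks of age, and each of the 6 groups had 3 libraries (18 in all) of poly(A) RNA. The study set these groups side by side to separate the endocrine action of the testis, which reaches the duct through the blood, from the lumicrine action, which reaches it through the luminal fluid. BOD takes away both, UOD takes away the luminal fluid of one side while the remaining testis still supplies hormone, and Nell2-/- males lack NELL2, a ligand that germ cells release into the luminal fluid. The knockout removes the ligand from the whole animal.

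Androgen enters the cell, where some of it is reduced to a stronger androgen, and like other steroid hormones it raises transcription of genes near paired copies of a short DNA element. Glucocorticoids act through a very similar element, and Fkbp5, Tsc22d3, Zbtb16 and Sgk1 are also well-known glucocorticoid targets. The members act at different points in the cell. Fkbp5 encodes FKBP51, an HSP90 cochaperone of steroid receptors, Tsc22d3 encodes the leucine zipper protein GILZ, and Zbtb16 encodes the zinc finger repressor PLZF. Sgk1 is a kinase of sodium transport, Ndrg1 encodes a cytoplasmic protein of differentiation and hypoxia, Acsl3 activates long-chain fatty acids for lipid synthesis, and Odc1 is the rate-limiting enzyme of polyamine synthesis.

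In mm10 coordinates (RefSeq, GRCm38.p6) the genes lie apart from each other, Fkbp5 at chr17:28398753-28486149, Tsc22d3 at chrX:140539528-140600522, Zbtb16 at chr9:48651797-48836225, Ndrg1 at chr15:66929318-66969641, Sgk1 at chr10:21882184-21999903, Acsl3 at chr1:78657825-78707743 and Odc1 at chr12:17544808-17551502. RefSeq windows of 300 bases around annotated transcript starts were searched on both strands for AGAACA, the hexamer that steroid receptors of this class bind, and for its palindrome, AGAACA followed by any 3 bases and TGTTCT, so that every palindrome match also counts as hexamer matches. The hexamer was in 18.97% of all 32851 windows and the palindrome in only 3 of them (0.00913%). Windows were found for 5 of the 7 members, 12 windows in all, several of them at alternative starts of Sgk1. The hexamer was in 4 of the 12, all at Sgk1 or Tsc22d3, so this is not a count of genes. The palindrome was in 1 window, at Sgk1. It lay 189 to 175 bases before an Sgk1 transcript start at base 21993890 of chromosome 10, within the span of longer Sgk1 transcripts but in no annotated exon. The 250 bases before that start are printed because they hold this palindrome, beside those of Fkbp5, the member that fell furthest, whose window had no match. A match is a stretch of letters and not a measured binding site, and enhancers further away were not searched. Capitals mark the hexamer in either orientation. The Sgk1 stretch is chr10:21993640-21993889 on the plus strand and the Fkbp5 stretch is chr17:28486150-28486399 on the minus strand, upstream of the first exon.
Sgk1: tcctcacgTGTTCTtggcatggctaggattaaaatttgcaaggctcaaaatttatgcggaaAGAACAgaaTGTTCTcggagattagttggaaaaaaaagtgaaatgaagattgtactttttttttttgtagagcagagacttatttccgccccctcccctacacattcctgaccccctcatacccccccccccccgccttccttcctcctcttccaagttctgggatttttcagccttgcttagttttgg
Fkbp5: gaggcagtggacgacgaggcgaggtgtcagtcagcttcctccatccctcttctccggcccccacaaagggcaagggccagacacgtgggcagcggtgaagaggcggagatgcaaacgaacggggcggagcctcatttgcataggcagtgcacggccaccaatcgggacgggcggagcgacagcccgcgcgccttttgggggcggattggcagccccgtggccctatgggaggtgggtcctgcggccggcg

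Levels are given as FPKM, read fragments scaled for transcript length and for the depth of the library. They are relative levels and not amounts per cell. Nor are they shares of an equal total, since the FPKM of a library summed to 777753 to 825866 in sham and 528664 to 564806 in BOD. The part of this difference in the changes was not tested. Changes are log2 fold changes of FPKM plus 0.1 ± SE from a limma fit over all 18 libraries, and a gene was called where its p value, adjusted by Benjamini-Hochberg over 17302 tested genes, was under 0.05. All 7 members passed the low-level filter. The study's methods name as many operated animals as libraries in each operation group, but the labels do not tie a library to an animal, and no source used here does so for WT and Nell2-/-, so the p values measure the spread between these libraries. Libraries of a group correlated at 0.989 to 0.993 over genes, and no columns were identical. The knocked-out gene checked little, since Nell2 was at most 0.130 FPKM in WT IS-caput and at most 0.0274 FPKM in Nell2-/-. Levels of cell type markers differed after BOD. The summed FPKM of 12 markers of initial segment and caput principal cells was 107963 to 113583 in sham and 3626 to 4116 in BOD, with 11 of 12 lower, and Lcn9 was at 0 in every BOD library, whereas the sum of 5 general epithelial markers was 1111 to 1142 in sham and 1080 to 1243 in BOD. Clear and narrow cell markers (4 of 4, sums 115 to 116 against 282 to 345), ciliated cell markers (4 of 4, 5.62 to 6.41 against 19.01 to 33.6) and B and plasma cell markers (4 of 4, 0.248 to 0.898 against 1.87 to 4.31) were higher, and sperm markers were lower (5 of 5, 66.3 to 76.8 against 0 to 0.419), with Prm1, Smcp and Odf1 at 0. The other comparisons had shifts of their own. After UOD 10 of the 12 principal cell markers were lower and 1 higher (sums 83857 to 87222 in contra against 40800 to 45488), sperm markers were lower (5 of 5, 52.7 to 81.0 against 1.63 to 4.59), endothelial markers were lower (3 of 5, 39.4 to 47.2 against 25.4 to 26.2) and 3 of 4 clear and narrow cell markers were higher and 1 lower (105 to 112 against 135 to 159). In Nell2-/- 10 of the 12 principal cell markers were lower and 2 higher (89503 to 93972 in WT against 52156 to 58010, with Lcn9 at 0), endothelial markers were lower (5 of 5, 39.3 to 39.9 against 15.8 to 20.9), 3 of 4 clear and narrow cell markers were higher and 1 lower (114 to 119 against 153 to 165), and no sperm marker was called. The control groups of the operations differed as well. In contra against sham 3 of the 12 principal cell markers were lower and 1 higher (107963 to 113583 in sham against 83857 to 87222). Smooth muscle markers were higher (4 of 6, 259 to 359 against 422 to 492), as were 2 of 5 endothelial markers, and 2 of 5 epithelial markers were lower. BOD replicate 1 stood apart from the other BOD libraries. Its adipocyte marker sum was 78.0 FPKM against 9.93 and 26.3 (sham 0.461 to 6.81, 4 of 5 higher after BOD), its fibroblast sum was 229 against 856 and 855, and its basal cell sum was 79.3 against 151 and 147. In bulk RNA, fewer cells of a type and less RNA per cell cannot be told apart, and the part of these markers in the results on the 7 genes was not tested. Results are therefore also given without BOD replicate 1 where it mattered.

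After BOD, 5 of the 7 genes fell (Fkbp5, Odc1, Sgk1, Zbtb16 and Acsl3) and 2 rose (Tsc22d3 and Ndrg1). Of all tested genes, 31.4% were lower and 30.4% were higher, 61.7% in all, so a call by itself did not set a member apart in this comparison. The median change of the 7 was -0.73 on the log2 scale against 0.02 over all tested genes. After UOD, 1 member fell (Acsl3) and 1 rose (Tsc22d3), where 18.6% of all genes were lower and 16% were higher (34.6% in all). In Nell2-/- mice 1 fell (Acsl3) and 1 rose (Ndrg1), against 18.6% and 17.8% of all genes (36.3% in all). The FPKM ranges of the libraries compared did not overlap for 7 of 7 members after BOD, 5 after UOD and 4 in Nell2-/-, where they did not for 63.3%, 46.7% and 48.9% of all tested genes. By direction alone, 5 genes went with the label androgen-induced after loss of both testes, and Tsc22d3 and Ndrg1 went against it. Of the 5, Acsl3 was also lower after UOD and in Nell2-/-, and the call of Zbtb16 was lost without BOD replicate 1. The part of androgen in these changes was not tested. The plot of FPKM by library has the levels behind these calls, and the plot of log2 fold changes has the sizes.

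**Figure D1:**
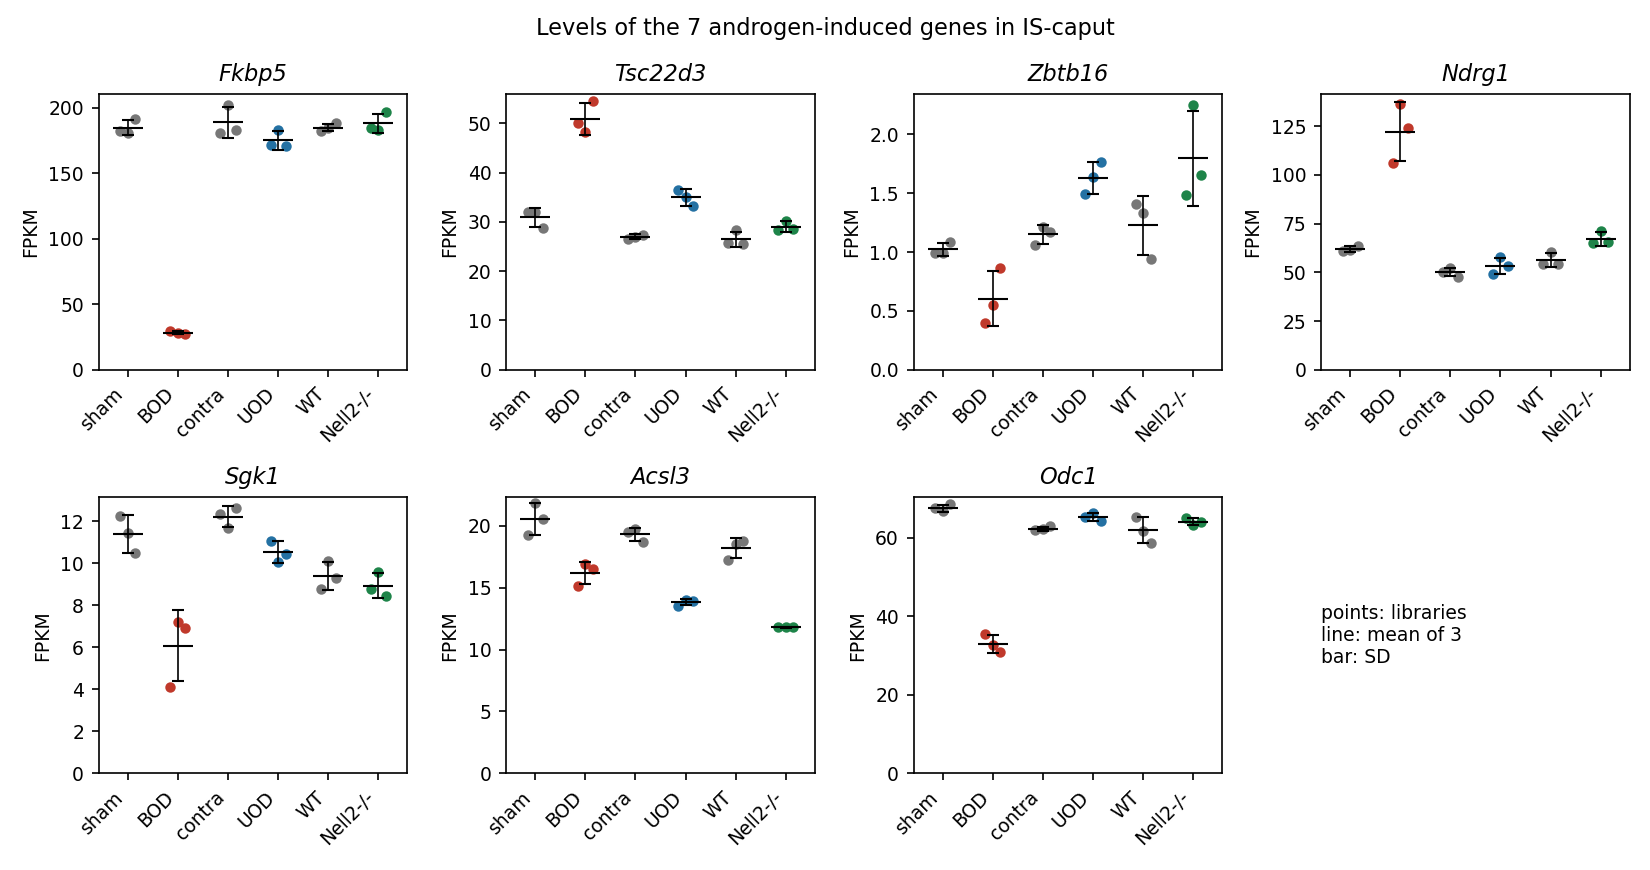
FPKM of each gene (vertical axis, from 0) in the 6 groups; points are libraries, the horizontal line is the mean of 3 and the bar is the SD. The 3 BOD libraries lie below all 3 sham libraries for Fkbp5, Zbtb16, Sgk1, Acsl3 and Odc1 and above them for Tsc22d3 and Ndrg1, while Acsl3 is also low in UOD and Nell2-/-.

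**Figure D2:**
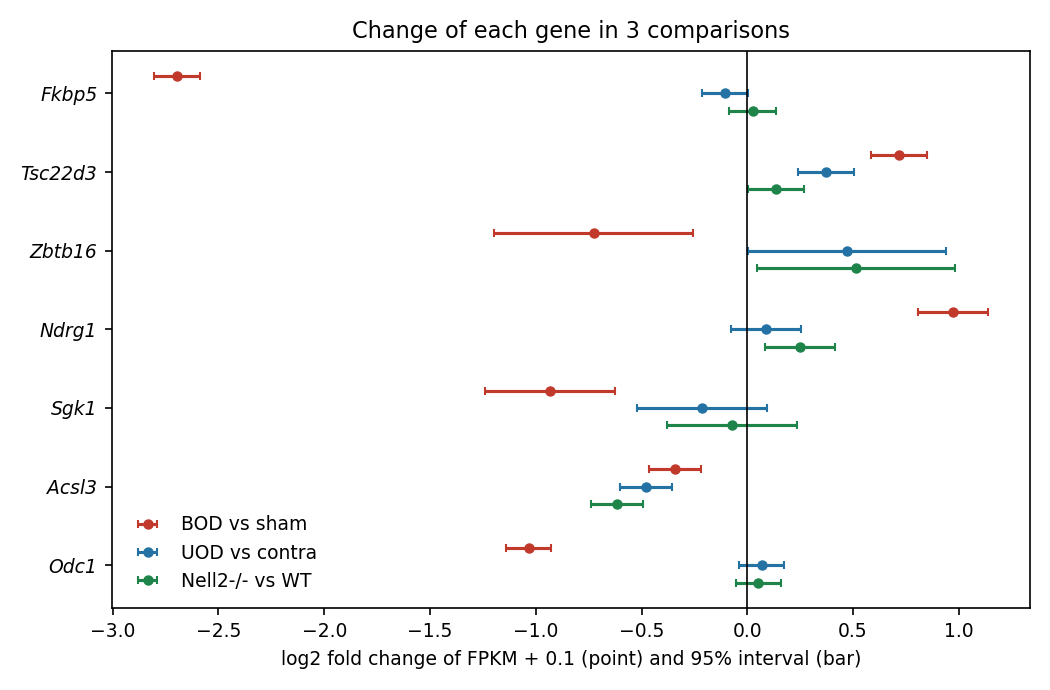
Log2 fold change (point) and 95% interval (bar) of each gene after BOD, after UOD and in Nell2-/-, each against its own controls. Fkbp5 after BOD is far to the left at -2.70, and for Acsl3 all 3 intervals lie below 0.

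Fkbp5, the gene of a cochaperone of steroid receptors, had the largest change of the 7. It stood at 182, 181 and 191 FPKM in the sham libraries and at 29.8, 27.8 and 27.7 FPKM in the BOD libraries. The groups were far apart, with a mean of 185 ± 5.84 (SD, n = 3) against 28.4 ± 1.20 FPKM. The fitted BOD level was 0.154 of the sham level, a log2 change of -2.70 ± 0.05 (SE, limma adjusted p = 2.7e-17), and only 2.54% of all tested genes had a lower log2 change. The contralateral libraries held 181, 202 and 183 FPKM and the ipsilateral ones 171, 183 and 171 FPKM. These overlapped, and the change of -0.11 ± 0.05 after UOD was not called (adjusted p = 0.12), with a 95% interval from -0.22 to 0.0025. WT libraries held 182, 185 and 188 FPKM and Nell2-/- libraries 185, 183 and 197 FPKM, again overlapping, with a change of 0.03 ± 0.05 (adjusted p = 0.76). The change after BOD differed from that after UOD by -2.59 ± 0.07 (adjusted p = 2.7e-14) and from that in Nell2-/- by -2.72 ± 0.07 (adjusted p = 1.4e-14). In the order of group means, contra, Nell2-/-, WT, sham and UOD ran from 189 down to 175 FPKM with overlapping ranges between neighbours, and only BOD lay apart.

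Around FKBP51, 11 genes of HSP90 and its cochaperones were examined, of which 7 fell and 1 rose after BOD. Hsp90ab1, the constitutive HSP90, went from 814 to 574 FPKM (-0.50, adjusted p = 1.4e-08), Hspa8, its partner chaperone, changed by -0.44 (adjusted p = 1.2e-07) and Hsp90aa1, the inducible HSP90, by -0.21 (adjusted p = 0.0077). Fkbp4, which encodes FKBP52, the close relative of FKBP51 that favours receptor activity, stood at 212 ± 10.5 FPKM in sham and 226 ± 21.1 FPKM in BOD, a change of 0.09 that was not called (adjusted p = 0.25). After UOD 5 of the 11 fell and 3 rose, and in Nell2-/- mice 3 fell and 3 rose, Fkbp4 among those that rose in both (0.22 and 0.24). The called share of the 11 was 72.7% after BOD, 72.7% after UOD and 54.5% in Nell2-/-, against 61.7%, 34.6% and 36.3% of all genes. The genes whose levels ran most like Fkbp5 over the 18 libraries, by Pearson r on the log2 scale over 9227 genes averaging 5 FPKM or more, were Acox3 (r = 0.999), a peroxisomal acyl-CoA oxidase, Gm1110 (0.998) and Cad (0.997), the enzyme that starts pyrimidine synthesis. Acox3 stood at 211 FPKM in sham and 11.01 FPKM in BOD, and between 178 and 206 FPKM in the other 4 groups. These correlations describe 18 libraries that share the same 6 groups.

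Odc1, the gate of polyamine synthesis, fell by a smaller factor, again without overlap. Sham libraries held 67.4, 66.7 and 68.4 FPKM and BOD libraries 35.4, 32.6 and 30.9 FPKM, means of 67.5 ± 0.882 and 33.0 ± 2.27 (SD, n = 3). The log2 change was -1.03 ± 0.05 (adjusted p = 7.7e-12). Contralateral libraries held 61.8, 62.1 and 62.8 FPKM against 65.3, 66.3 and 64.2 FPKM on the ipsilateral side, which lay slightly above, and the change of 0.07 ± 0.05 was not called (adjusted p = 0.32). WT libraries held 65.1, 61.8 and 58.5 FPKM and Nell2-/- libraries 64.9, 63.2 and 64.1 FPKM, with a change of 0.05 ± 0.05 (adjusted p = 0.46). The difference of the BOD change was -1.10 ± 0.07 from UOD (adjusted p = 1.5e-09) and -1.09 ± 0.07 from Nell2-/- (adjusted p = 1.5e-09). In order, sham lay above UOD without overlap, UOD and Nell2-/- overlapped, Nell2-/- lay just above contra, contra and WT overlapped, and BOD was lowest.

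Of 19 genes of the polyamine pathway around Odc1, 7 fell and 5 rose after BOD, 5 fell and 3 rose after UOD, and 3 fell and 4 rose in Nell2-/-. These calls made up 63.2%, 42.1% and 36.8% of the 19, near the 61.7%, 34.6% and 36.3% of all genes. Sat1, the acetyltransferase that starts polyamine breakdown and export, went from 255 to 164 FPKM after BOD (-0.63, adjusted p = 5.8e-09) and changed by -0.10 after UOD (adjusted p = 0.15). Slc3a2, an amino acid transporter chain that has also been tied to polyamine transport, fell in all 3 comparisons, by 0.84 after BOD, 0.66 after UOD and 0.73 in Nell2-/- on the log2 scale. The antizymes Oaz1 and Oaz2, which mark the ODC1 protein for breakdown, were not called in any of the 3 comparisons, with changes between -0.13 and 0.09. Srm, which makes spermidine and was picked after its values were seen, changed by -1.04 after BOD, -0.19 after UOD and -0.13 in Nell2-/-. Other genes of the pathway went the opposite way after BOD. Arg2 held 26.6 to 29.6 FPKM in sham and 50.2 to 55.9 FPKM in BOD. Sms held 2.13 to 2.27 FPKM in sham and 4.24 to 4.81 FPKM in BOD. The patterns most like Odc1 were those of Clec2l (r = 0.994), Nucb2 (0.991) and Gstm6 (0.991). Fkbp5 and Odc1 themselves had r = 0.984 over the 18 libraries.

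Sgk1, the kinase that prolongs the life of the epithelial sodium channel, fell after BOD with a wide spread. Sham libraries held 12.3, 11.4 and 10.5 FPKM and BOD libraries 4.12, 7.20 and 6.91 FPKM, so the groups did not overlap and replicate 1 was the lowest. The log2 change was -0.93 ± 0.15 (adjusted p = 2.7e-05), and without BOD replicate 1 it was -0.68 (adjusted p = 3.2e-06). Contralateral libraries held 12.4, 11.7 and 12.7 FPKM and ipsilateral libraries 11.1, 10.1 and 10.5 FPKM, all lower, with a change of -0.21 ± 0.15 that was not called in the shared fit (adjusted p = 0.28, 95% interval from -0.52 to 0.094) and was called when only these 6 libraries set the spread (adjusted p = 0.043). WT libraries held 8.77, 10.1 and 9.31 FPKM and Nell2-/- libraries 8.77, 9.60 and 8.45 FPKM, overlapping (-0.07 ± 0.15, adjusted p = 0.75). The BOD change differed from that after UOD by -0.72 ± 0.21 (adjusted p = 0.010) and from that in Nell2-/- by -0.86 ± 0.21 (adjusted p = 0.0025). From contra down through sham, UOD, WT and Nell2-/- each neighbour overlapped the next, and BOD lay below them.

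Of 8 SGK relatives and sodium channel genes 7 were tested, and 1 fell and 3 rose after BOD, 3 fell and 3 rose after UOD, and 3 fell and 2 rose in Nell2-/-. As shares of the 7 these are 57.1%, 85.7% and 71.4% called, against 61.7%, 34.6% and 36.3% of all genes. Nedd4l, the ubiquitin ligase that SGK1 holds back, rose by 0.53 after BOD, by 0.48 after UOD and by 0.67 in Nell2-/- on the log2 scale, and Pdpk1, the kinase that switches SGK1 on, fell by 0.39, 0.43 and 0.37. Scnn1a, the channel's alpha chain, rose by 0.48 after UOD (adjusted p = 0.00021), with changes of 0.13 after BOD (adjusted p = 0.18) and 0.05 in Nell2-/- (adjusted p = 0.67). Slc9a3r2, a scaffold that holds SGK1 beside the sodium-proton exchanger, fell by 0.60 after UOD and by 1.04 in Nell2-/-, and its change after BOD was -0.29 (adjusted p = 0.054). The genes most like Sgk1 were Itgbl1 (r = 0.938), Itgb1 (0.936), an integrin chain, and Eif4e (0.934), the cap-binding translation factor.

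Zbtb16, the gene of the repressor PLZF, was the least abundant member, and its changes went in opposite directions. Sham libraries held 0.989, 0.994 and 1.08 FPKM and BOD libraries 0.399, 0.550 and 0.861 FPKM, all below sham but spread over a wider range than the gap to it. The log2 change was -0.73 ± 0.22 (adjusted p = 0.0090), and it was -0.51 and no longer called without BOD replicate 1 (adjusted p = 0.057). Contralateral libraries held 1.06, 1.22 and 1.17 FPKM and ipsilateral libraries 1.497, 1.64 and 1.77 FPKM, all above. The change of 0.47 ± 0.22 was not called (adjusted p = 0.11), though it was with only these 6 libraries in the fit (adjusted p = 0.0499). WT libraries held 1.41, 1.33 and 0.940 FPKM and Nell2-/- libraries 1.48, 2.25 and 1.65 FPKM, with a change of 0.51 ± 0.22 that was not called either (adjusted p = 0.083). The test of the difference was called, -1.20 ± 0.31 between the BOD and UOD changes (adjusted p = 0.0059) and -1.24 ± 0.31 between the BOD and Nell2-/- changes (adjusted p = 0.0038). Nell2-/- and UOD overlapped at the top, WT, contra and sham overlapped in turn, and BOD lay lowest.

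Of 9 relatives of Zbtb16 with the same BTB zinc finger design, 1 fell and 3 rose after BOD, 3 fell and 1 rose after UOD, and 1 fell and 2 rose in Nell2-/-. These are 44.4%, 44.4% and 33.3% of the 9, against 61.7%, 34.6% and 36.3% of all genes. Zbtb18, a repressor known from the developing brain, changed in the same order as Zbtb16, from 34.7 to 22.6 FPKM after BOD (-0.61, adjusted p = 4.7e-09), 0.28 after UOD (adjusted p = 0.00019) and 0.27 in Nell2-/- (adjusted p = 0.00018). Zbtb4, a methyl-CpG binding member, rose by 0.50 after BOD and fell by 0.21 and 0.20 in the other comparisons. Zbtb7a and Zbtb7b were not called in any of the 3. The genes most like Zbtb16 were Fnip1 (r = 0.930), Sh3bp2 (0.928) and C1s2 (0.922).

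Acsl3, which activates fatty acids at the endoplasmic reticulum and lipid droplets, was lower in all 3 comparisons. Sham libraries held 19.3, 21.8 and 20.5 FPKM and BOD libraries 15.2, 16.9 and 16.5 FPKM, a change of -0.34 ± 0.06 (adjusted p = 6.9e-05). Contralateral libraries held 19.5, 19.7 and 18.7 FPKM and ipsilateral libraries 13.6, 14.0 and 14.0 FPKM, a change of -0.48 ± 0.06 (adjusted p = 5.4e-06). WT libraries held 17.3, 18.5 and 18.8 FPKM and Nell2-/- libraries 11.8, 11.9 and 11.8 FPKM, a change of -0.62 ± 0.06 (adjusted p = 1.8e-07). In none of the 3 comparisons did the libraries overlap, and in the fit over all libraries Acsl3 was the only member called lower after UOD or in Nell2-/- (Sgk1 was also called lower after UOD with only those libraries in the fit). The BOD change was smaller than the Nell2-/- change by 0.28 ± 0.08 (adjusted p = 0.012), and between the BOD and UOD changes no difference was called (0.13 ± 0.08, adjusted p = 0.22, 95% interval from -0.040 to 0.31). In the order of levels, sham, contra and WT overlapped in turn, followed without overlap by BOD, UOD and Nell2-/-. The exons of Acsl3 share 244 bases with those of Utp14b on the same strand, and Utp14b, at a far lower level, was listed at 2.22 to 2.69 FPKM in sham and 1.49 to 1.55 FPKM in BOD, and at 2.67 to 3.30 FPKM in WT and 1.48 to 1.64 FPKM in Nell2-/-. How reads of the shared bases were assigned was not tested.

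Of 11 acyl-CoA synthetase relatives 81.8% were called after BOD, 45.5% after UOD and 63.6% in Nell2-/-, against 61.7%, 34.6% and 36.3% of all genes. Of these 11 genes, 6 fell and 3 rose after BOD, 2 fell and 3 rose after UOD, and 5 fell and 2 rose in Nell2-/-. Acsl1, the most abundant of them, went from 130 to 116 FPKM after BOD (-0.16, adjusted p = 0.0081), with a change of 0.02 after UOD (adjusted p = 0.80) and -0.14 in Nell2-/- (adjusted p = 0.033). Acsl4, which prefers arachidonic acid, rose where Acsl3 fell, by 0.84 after BOD, 0.43 after UOD and 0.43 in Nell2-/-. Slc27a1, a fatty acid transport protein, rose by 1.03 after BOD and 0.37 after UOD, and Slc27a4 fell by 0.60 after BOD and 0.58 in Nell2-/-. The genes most like Acsl3 over the libraries were Dhcr7 (r = 0.976), the last enzyme of cholesterol synthesis, Kank1 (0.975) and Ipmk (0.974). Dhcr7 stood at 12.2 FPKM in sham and 3.54 FPKM in BOD, at 9.06 FPKM in contra and 1.10 FPKM in UOD, and at 7.15 FPKM in WT and 0.632 FPKM in Nell2-/-.

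Tsc22d3, the GILZ gene, rose after both operations. Sham libraries held 32.1, 32.0 and 28.7 FPKM and BOD libraries 50.1, 48.2 and 54.6 FPKM, all higher, with a change of 0.72 ± 0.06 (adjusted p = 2.2e-08). Contralateral libraries held 26.5, 27.0 and 27.4 FPKM and ipsilateral libraries 36.6, 35.1 and 33.2 FPKM, also apart, with a change of 0.37 ± 0.06 (adjusted p = 0.00016). WT libraries held 25.7, 28.3 and 25.5 FPKM and Nell2-/- libraries 28.4, 30.3 and 28.5 FPKM, higher by a narrow margin, with a change of 0.13 ± 0.06 that was not called (adjusted p = 0.11) and was called without WT replicate 2 (0.18, adjusted p = 0.048). The rise after BOD exceeded that after UOD by 0.35 ± 0.09 (adjusted p = 0.0048) and that in Nell2-/- by 0.58 ± 0.09 (adjusted p = 3.9e-05). The rise after UOD is measured against contra, which itself was at -0.19 ± 0.06 against sham (adjusted p = 0.0502). BOD, UOD and sham followed each other without overlap, sham and Nell2-/- overlapped, Nell2-/- lay above contra, and contra and WT overlapped. The 3 other TSC22 domain genes moved in both directions after BOD. Tsc22d1, a growth regulator first found as induced by TGF-beta, went from 135 to 206 FPKM (0.62, adjusted p = 4.1e-07), Tsc22d2 changed by 0.45 (adjusted p = 0.0045) and Tsc22d4 by -0.88 (adjusted p = 4.7e-10). None of the 3 was called after UOD, and Tsc22d1 (0.40) and Tsc22d4 (0.35) rose in Nell2-/-. The genes most like Tsc22d3 were Zfp788 (r = 0.972), Cav2 (0.969), a caveolin, and Atp6v1c2 (0.968), a proton pump subunit, which went from 5.36 to 27.1 FPKM after BOD.

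Ndrg1 rose after BOD, against its label. Sham libraries held 61.1, 61.2 and 63.5 FPKM and BOD libraries 106, 136 and 124 FPKM, means of 61.9 ± 1.33 and 122 ± 15.04 (SD, n = 3), a change of 0.97 ± 0.08 (adjusted p = 7.7e-09). Contralateral libraries held 50.3, 52.3 and 47.8 FPKM and ipsilateral libraries 49.4, 57.7 and 53.3 FPKM, overlapping, with a change of 0.09 ± 0.08 (adjusted p = 0.41). WT libraries held 54.3, 60.4 and 54.4 FPKM and Nell2-/- libraries 64.9, 71.0 and 65.4 FPKM, all higher, with a change of 0.25 ± 0.08 (adjusted p = 0.018). That call was lost without WT replicate 1 (adjusted p = 0.066), WT replicate 3 (0.065) or Nell2-/- replicate 2 (0.078). The BOD change exceeded the UOD change by 0.88 ± 0.11 (adjusted p = 6.3e-06) and the Nell2-/- change by 0.72 ± 0.11 (adjusted p = 4.5e-05). Ndrg1 was also the only member called between the 2 control groups of the operations, contra against sham, at -0.30 ± 0.08 (adjusted p = 0.018), where 5.99% of all genes were lower and 6.65% were higher (12.6% in all), and that call was lost without sham replicate 1 (adjusted p = 0.0505), contra replicate 1 (0.0502) or contra replicate 3 (0.069). BOD, Nell2-/-, sham and WT followed each other without overlap, and WT, UOD and contra overlapped in turn. Ndrg1 exons also overlap those of the annotated genes Gm17035 and Gm2895, which were not analysed here.

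The 3 relatives of Ndrg1 all fell after BOD, where Ndrg1 rose, as the plot of NDRG and TSC22 domain genes shows. Ndrg2, a stress-responsive gene of the same fold, held 56.2, 50.9 and 69.0 FPKM in sham and 33.7, 33.3 and 32.4 FPKM in BOD (-0.81, adjusted p = 2.7e-07). It rose in the other comparisons, by 0.85 after UOD (adjusted p = 5.3e-07) and 1.43 in Nell2-/- (adjusted p = 4.6e-10), where libraries held 163, 144 and 152 FPKM. Ndrg4 held 33.5, 34.6 and 36.5 FPKM in sham and 9.78, 8.13 and 8.59 FPKM in BOD (-1.97, adjusted p = 1.8e-13), and Ndrg3, a relative also expressed in the human prostate, changed by -0.73 (adjusted p = 4.7e-07). After UOD neither was called (0.03 and -0.03), and in Nell2-/- Ndrg4 rose by 0.52 and Ndrg3 by 0.21 (adjusted p = 0.049). Ndrg1 is also a hypoxia target. Of 14 other hypoxia-induced genes 78.6% were called after BOD, 57.1% after UOD and 71.4% in Nell2-/-, against 61.7%, 34.6% and 36.3% of all genes. Of these 14 genes, 6 fell and 5 rose after BOD, 3 fell and 5 rose after UOD, and 2 fell and 8 rose in Nell2-/-. Among the most abundant, the glycolytic genes Aldoa and Pgk1 fell after BOD by 0.29 and 0.69 and Ldha rose by 0.27, and Bnip3, a mitophagy gene, rose in all 3 comparisons, by 0.52, 0.24 and 0.65. The genes most like Ndrg1 were Ppil6, Mxi1 and Cep57 (r = 0.955 each).

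**Figure D3:**
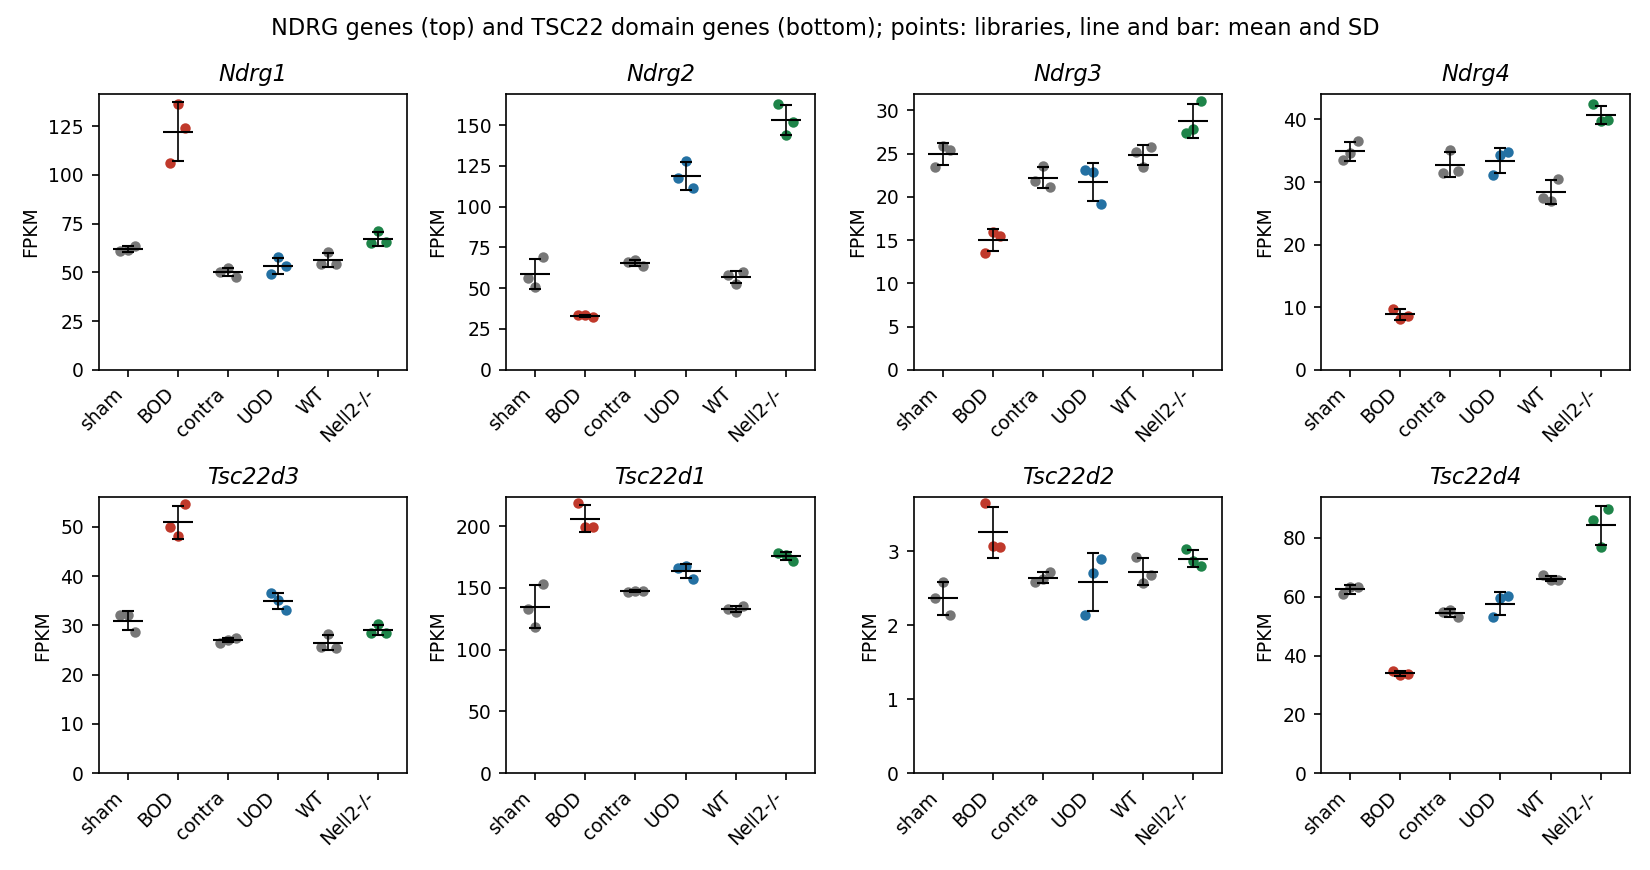
FPKM (vertical axis, from 0) of Ndrg1 and its 3 relatives and of Tsc22d3 and its 3 relatives in the 6 groups; points are libraries, lines are means of 3 and bars are SDs. The 3 BOD libraries are the highest of all for Ndrg1 and the lowest for Ndrg2, Ndrg3 and Ndrg4, and Ndrg2 is highest in Nell2-/-, at 144 to 163 FPKM.

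The tests of the difference between comparisons covered all 7 genes. The BOD change differed from the UOD change for 6 of them, 4 lower and 2 higher, where 19.3% and 18.1% of all genes were called (37.4% in all), and from the Nell2-/- change for all 7, 4 lower and 3 higher, against 22.7% and 21.9% (44.6% in all). Both sets of differences rest on the same BOD and sham libraries. Between the UOD and the Nell2-/- changes no member was called by limma, where 2.27% of all genes were lower and 2.38% were higher (4.65% in all). Before adjustment the threshold of 0.05 was passed by 1 member, Tsc22d3, whose change was higher after UOD by 0.24 ± 0.09 (adjusted p = 0.15).

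Other genes of the androgen response known mostly from human prostate cells were mixed as well. Of 94 such genes, all tested, 51 fell and 27 rose after BOD (54.3% and 28.7%, against 31.4% and 30.4% of all genes). After UOD 34 fell and 15 rose, and in Nell2-/- 37 fell and 21 rose. The falls were 36.2% of the list after UOD and 39.4% in Nell2-/-, against 18.6% of all genes in each. An excess of falls was therefore seen in all 3 comparisons. The median log2 change of the 94 genes was -0.31 after BOD, -0.10 after UOD and -0.09 in Nell2-/-, against 0.02 over all genes in each. The 3 falls after BOD with the smallest adjusted p were also called lower in the other comparisons. Scd1, which makes monounsaturated fatty acids, went from 126 to 15.9 FPKM (-2.97, adjusted p = 1.6e-16), and by -2.31 and -2.52 after UOD and in Nell2-/-. Insig1, the brake on sterol synthesis, changed by -2.14, -0.77 and -0.33, and Spcs3, a signal peptidase subunit, by -1.63, -0.29 and -0.53. Among the 3 rises with the smallest adjusted p, Akap12, a scaffold of protein kinase A, went from 3.77 to 22.8 FPKM after BOD (2.56, adjusted p = 1.8e-13) with 0.33 after UOD and 0.37 in Nell2-/-, Bmpr1b, a BMP receptor, changed by 1.61, 0.82 and 0.60, and Pdlim5, a cytoskeletal adaptor, rose by 0.84 after BOD. Among the most abundant, Dbi, an acyl-CoA binding protein, changed by -1.94, -1.14 and -2.50, Abhd2, a lipase, by -1.84, -0.18 (adjusted p = 0.17) and -0.36, and the keratin Krt8 by -0.47, -0.06 (adjusted p = 0.43) and 0.12 (adjusted p = 0.063). B2m, the light chain of MHC class I, fell by 0.36 after BOD and rose by 0.15 and 0.27 in the other comparisons. In the plot of both operations, Scd1 and Fkbp5 both lie far to the left, Scd1 low and Fkbp5 close to the horizontal line at 0.

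**Figure D4:**
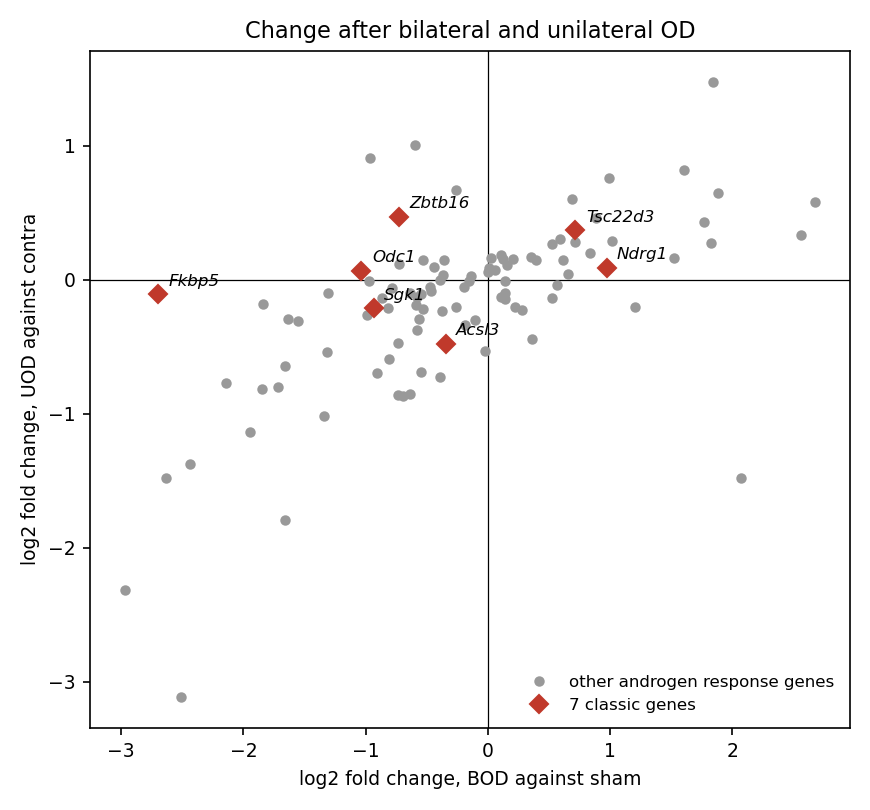
Log2 fold change after BOD against sham (horizontal axis) and after UOD against contra (vertical axis) of 94 other androgen response genes (grey points) and the 7 classic genes (red diamonds). Fkbp5 lies at -2.70 and -0.11, Odc1 at -1.03 and 0.07, and Acsl3 at -0.34 and -0.48.

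Because glucocorticoids induce several of the 7 genes, 22 other glucocorticoid-induced genes were examined. After BOD 10 fell and 6 rose with a median log2 change of -0.01, after UOD 4 fell and 6 rose, and in Nell2-/- 3 fell and 6 rose. The called share of the 22 was 72.7%, 45.5% and 40.9%, against 61.7%, 34.6% and 36.3% of all genes. Lcn2, a secreted lipocalin, changed by -3.68 after BOD, -1.38 after UOD and -1.80 in Nell2-/-. The metallothioneins Mt1 and Mt2 fell after BOD by 0.91 and 0.98 and were not called in the other comparisons, and Rasd1, a small G protein, went down by 1.31 after BOD and up by 0.41 and 0.79 in the others. Of 11 steroid receptors and steroid-converting enzymes 4 fell and 6 rose after BOD, 3 fell and 2 rose after UOD, and 4 fell and 2 rose in Nell2-/-. That is 90.9%, 45.5% and 54.5% called, beside the same shares of all genes. Nr3c1, the glucocorticoid receptor, went from 7.59 to 12.6 FPKM (0.72, adjusted p = 4.1e-06), and Srd5a2, a reductase that makes the stronger androgen, went from 164 to 74.5 FPKM (-1.15, adjusted p = 9.3e-09). In the other comparisons Nr3c1 was not called (-0.01 and 0.07), and Srd5a2 rose by 0.32 after UOD (adjusted p = 0.012) and fell by 0.31 in Nell2-/- (adjusted p = 0.015). Other reductases of the list are not described here. Srd5a2 alone therefore does not show how the conversion of androgen in the duct changed.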

How the data were processed

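IS-caput poly(A) RNA was sequenced as 101 bp single-ended reads from stranded mRNA libraries. The authors aligned the reads to mm10 with TopHat2 (2.1.1) and estimated levels with Cufflinks (2.2.1), and the deposited table holds 1 normalized FPKM value per gene and library. Any further scaling behind the word normalized, and the strand setting of the counting, are not given in the sources used here, nor are read totals, so depth was not printed. In relative terms 1 read was worth 0.600 to 1.01 of its value in a sham library, and least in BOD.

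All 18 libraries were used. Genes with at least 0.1 FPKM in at least 3 libraries (17302, with 7044 left out) were fitted as log2(FPKM + 0.1), which understates the change of low genes, in limma (3.58.1, R 4.3.3) with 6 group means, intensity trend, robust variances and 12 residual degrees of freedom, tested 2-sided with Benjamini-Hochberg adjustment over all tested genes. Intervals cover 95%. The members and gene lists were chosen with earlier results of these data known. Genes were named by rule: all 7 members, the 4 most abundant genes of a list and the 3 genes most like a member. Srm, Arg2 and Sms of the polyamine pathway were named outside this rule, after their values were seen. Among androgen response genes, 3 in each direction after BOD were named by the smallest adjusted p. Only those averaging at least 10 FPKM over sham and BOD were ranked. Receptors and enzymes of at least 1 FPKM could be named, and of these only Nr3c1 and Srd5a2 were. Of these lists, 6 older symbols were matched through RefSeq gene identifiers and 1 marker (Hbb-bt) was not matched, and 1 gene of the list of steroid receptors and enzymes is not reported here. Marker lists whose counts are not in the report came, after BOD, to 1 lower and 2 higher of 5 for epithelium, 2 lower of 4 for basal cells, 2 lower of 6 for smooth muscle, 3 lower and 2 higher of 6 for fibroblasts, 2 lower and 1 higher of 5 for endothelium, 3 higher of 6 for macrophages, 2 higher of 5 for T and NK cells and 0 of 3 for erythrocytes. After UOD they came to 1 higher for epithelium, 1 lower for basal cells, 1 higher for smooth muscle, 1 lower for fibroblasts, 1 higher each for T and NK, B and plasma and ciliated cells, 1 lower and 1 higher for erythrocytes and 0 for macrophages and adipocytes. In Nell2-/- they came to 1 lower and 1 higher for epithelium, 2 lower for basal cells, 1 lower each for fibroblasts and macrophages and 0 for the others. Promoter sequences are from RefSeq (GRCm38.p6). Alternatives were other pseudocounts, filters and scalings, fewer libraries in the fit, a replicate block, a test with unequal variances and leaving out each library.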

Additional observations from a re-analysis of the deposited data

Results flagged for a closer look

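The change after BOD differed from the change after UOD, by the limma interaction test, for Fkbp5 (-2.59 on the log2 scale), Odc1 (-1.10), Zbtb16 (-1.20) and Sgk1 (-0.72), for which the BOD change was the lower one, and for Ndrg1 (0.88) and Tsc22d3 (0.35), for which it was the higher one. The change after BOD differed from the change in Nell2-/- in the same way for Fkbp5 (-2.72), Odc1 (-1.09), Zbtb16 (-1.24), Sgk1 (-0.86), Ndrg1 (0.72) and Tsc22d3 (0.58), and for Acsl3 (0.28), which fell less after BOD than in Nell2-/-. Dixon's test for a library far from the others was not run. The values without each library are given with the processing alternatives.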

How the results depend on the processing

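No member change that was called, in the main fit or in the alternative, turned its direction. Sign changes where neither fit made a call were not counted. Of 833 member changes recomputed under alternatives, 813 kept their side of the threshold, 8 lost a call and 12 gained one. After BOD every call held except that of Zbtb16, which was not called with unequal variances (-0.76) or without BOD replicate 1 (-0.51). After UOD, 2 members fell and 2 rose with only the libraries of the comparison, and 2 and 3 with unequal variances. In Nell2-/- 2 rose with 1 FPKM added or with a correction for exon length, which was chosen after seeing the data, and 0 to 2 without single libraries. Between contra and sham 2 members fell with 1 FPKM added, a filter of 1 FPKM or unequal variances, and 0 to 2 without single libraries, and of the other androgen response genes 10 fell and 10 rose, against 18 and 17 with unequal variances. Without single libraries 6 to 9 of them fell, 6 without sham replicate 1. Of all genes 1036 were lower and 1150 higher in contra, against 1655 lower with unequal variances, 731 higher with only these libraries and 633 higher with the exon length correction, and 359 to 897 lower and 667 to 1228 higher without single libraries. The causes were not tested. Same-numbered libraries deviated together little or not at all (correlations from -0.059 to 0.076, and 8 of 18 correlated best with their own number). Such correlations cannot tell whether libraries of the same number share an animal, and whether they do is not known. With the replicate block the member calls were 5 lower and 2 higher after BOD, 1 and 1 after UOD and 1 and 1 in Nell2-/-, with Fkbp5 at -2.70 after BOD, and no member call changed. Scaling by median ratios changed no member call, but its factors were 1.004 to 1.013, so it could move little. Scaling to the summed FPKM of each library was not tried. The SE of a member's change was 0.05 to 0.08 for all but Sgk1 (0.15) and Zbtb16 (0.22), the 2 members with the lowest FPKM, and limits what could be called for them.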
